A study of Homo sapiens with 2 samples.

Results

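Sprouty proteins, SPRED proteins, the ERK-directed dual-specificity phosphatases and the PEA3 group of ETS transcription factors were followed in RKO, an established line of human colon cancer cells with a mutant BRAF kinase, after knockdown of BCLAF1-L. The members were the 10 genes SPRY1, SPRY2, SPRY4, SPRED1, SPRED2, DUSP4, DUSP5, DUSP6, ETV4 and ETV5, out of 19775 genes with a probe set of their own. They were taken through every probe set that the platform annotation assigns to one of these symbols alone, which gave 24 probe sets. Cells of the control group carried a retroviral hairpin against luciferase (sh-Luci), and cells of the knockdown group a retroviral hairpin against BCLAF1-L, the long form of a nuclear RNA-associated protein (sh-BCLAF1-L, hairpin 1). Both cultures received fresh medium 24 h after infection and were selected with puromycin at 2 ug/ml for 72 to 96 h, so both groups share infection and selection. Each group was represented by 1 array prepared from 200 ng of total RNA. The spread between cultures is therefore unknown, no p-value could be computed, and every difference compares these 2 arrays. A single hairpin against BCLAF1-L was measured, so its intended effect and any other effect of the hairpin cannot be told apart.

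The RAS, RAF, MEK and ERK cascade carries growth factor signals from receptor tyrosine kinases to the nucleus. Active ERK phosphorylates ETS factors, which switch on genes that act back on the cascade. Sprouty and SPRED proteins damp it at the level of receptor adaptors, RAS and RAF, and the dual-specificity phosphatases remove the activating phosphates from ERK. In cells with mutant BRAF the cascade is driven below the receptors and RAS, and transcripts of this feedback group are commonly read as a measure of ERK output.

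Start regions are shown for the member with the largest difference (SPRY2), for its relative with the opposite sign (SPRY4) and for the phosphatase with the largest difference (DUSP6). Each is a RefSeq window of GRCh38.p14 from 250 bases before to 50 bases after an annotated transcription start, written 5′ to 3′ on the strand of the gene. Capitals mark CCGGAA, the core of many ETS binding sites.
SPRY2, chr13:80341077-80341376, minus strand: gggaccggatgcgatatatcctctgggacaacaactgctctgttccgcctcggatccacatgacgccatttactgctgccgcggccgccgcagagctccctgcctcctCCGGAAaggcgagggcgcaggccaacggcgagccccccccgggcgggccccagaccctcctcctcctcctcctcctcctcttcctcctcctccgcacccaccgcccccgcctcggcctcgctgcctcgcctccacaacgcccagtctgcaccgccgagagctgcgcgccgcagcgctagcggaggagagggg
SPRY4, chr5:142324198-142324497, minus strand: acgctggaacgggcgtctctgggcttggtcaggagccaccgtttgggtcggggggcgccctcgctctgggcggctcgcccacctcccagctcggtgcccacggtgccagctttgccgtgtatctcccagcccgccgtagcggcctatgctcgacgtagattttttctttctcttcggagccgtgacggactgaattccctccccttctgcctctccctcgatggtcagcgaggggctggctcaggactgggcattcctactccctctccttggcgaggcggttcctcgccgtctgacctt
DUSP6, chr12:89352452-89352751, minus strand: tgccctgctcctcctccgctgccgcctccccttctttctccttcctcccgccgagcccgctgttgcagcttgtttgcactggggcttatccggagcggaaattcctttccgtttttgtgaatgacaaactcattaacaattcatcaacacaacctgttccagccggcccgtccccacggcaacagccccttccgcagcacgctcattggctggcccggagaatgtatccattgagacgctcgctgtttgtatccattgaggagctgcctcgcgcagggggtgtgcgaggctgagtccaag
SPRY2 has 3 windows in the table, and the one printed is the most upstream, which holds CCGGAA at position 109, counted from 1 at its 5′ end. The other 2 SPRY2 windows and those of SPRY4 and DUSP6 hold no match on either strand. G and C make up 71.0% of the printed SPRY2 window and 63.0% and 44.7% of its other windows, 65.0% of that of SPRY4 and 58.3% of that of DUSP6, with a median of 58.7% over all 35116 windows. The table used here gave 10 windows for 6 of the members. CCGGAA, which was chosen after the windows had been seen, occurs in 2 of these 10 and in 17.2% of all windows. The longer ETS motif CCGGAAGT, which contains it, occurs in 0 of the 10 and in 4.14% of all windows. The AP-1 motif TGANTCA occurs in 1 of the 10, an internal start of SPRED2, and in 7.71% of all windows. The cyclic AMP response element TGACGTCA occurs in 0 of the 10 (1.85% of all windows), and the interferon-stimulated response element in 0 of the 10 (3.57%). All motifs were searched on both strands, and a match describes letters only.

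For BCLAF1, the targeted gene, all 6 probe sets were lower in the knockdown, by 1.43-fold to 2.96-fold. The arrays had median intensities of 82.7 (control) and 84.5 (knockdown), and a gene was called detected from the 40th percentile of mean log2 intensity upward, judged on its brightest probe set, which is an intensity of 63.7. The 14507 detected genes had a median log2 difference of 0.019, and the central 95% of them lay between -0.31 and 0.37. All 18 probe sets for the biotin spike-ins had higher knockdown values (median log2 difference 0.20), and for ACTB the 3′ probe set exceeded the 5′ probe set 3.41-fold in the control and 3.81-fold in the knockdown. The part of these array differences in the member values was not tested. Of 12 measured colon epithelium markers 8 were detected, among them EPCAM, CDX1, CDX2 and VIL1, whereas KRT19, KRT20, CDH1 and CEACAM5 lay below detection. The values of CDX2 (67.4 and 77.3) and VIL1 (61.1 and 67.5) were close to the detection intensity. Of the 8, KRT18 (979 and 674, log2 difference -0.54) and LGALS4 (186 and 143, -0.37) lay below the central 95% of detected genes. For other cell types, the detected markers were 5 of 8 for fibroblasts, 3 of 6 for blood cells and 2 of 5 for endothelium. None of the measured markers differed by 1.5-fold or was at 0. By the same cutoff 14507 of all 19775 genes were detected, so detection of a marker does not show that its cell type is present. The summed intensities of all measured markers were 2317 and 2038 for colon epithelium, 954 and 973 for fibroblasts, 510 and 529 for blood cells and 383 and 395 for endothelium, in the control and the knockdown respectively. The fall of the colon epithelium sum rests on KRT18, which alone fell by more than the sum did. That sum also includes the 4 markers below detection. The part of the marker differences in the member values was not tested.

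One member, SPRY2, stood far from the control value and the other 9 members did not reach 1.5-fold. All 10 members were detected, through 19 of their 24 probe sets. Of the 10, 6 were higher in the knockdown, a share close to the 55.0% of all detected genes that were higher. Above the central 95% of all detected genes lay 1 member, SPRY2, and below it 0, where each side holds 2.50% of all detected genes by construction. At the lowest fold threshold tried, a log2 difference of 0.32, 2 members (SPRY2 and DUSP6) were higher (background 4.16%) and 0 lower (background 2.21%). At 1.5-fold 1 member was higher (background 0.434%) and 0 were lower (background 0.200%), and at 2-fold the same member was higher (background 0.0689%). The median difference of the members was 0.074, against 0.019 for all detected genes, and 0.015 with the median over the probe sets of each gene in place of the brightest. Without SPRY2 the median was 0.033, and the other 9 members ranged from -0.24 to 0.36. The RNA came from whole cultures, so a difference in every cell and a difference in the share of cells with the transcript cannot be told apart.

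**Figure D1:**
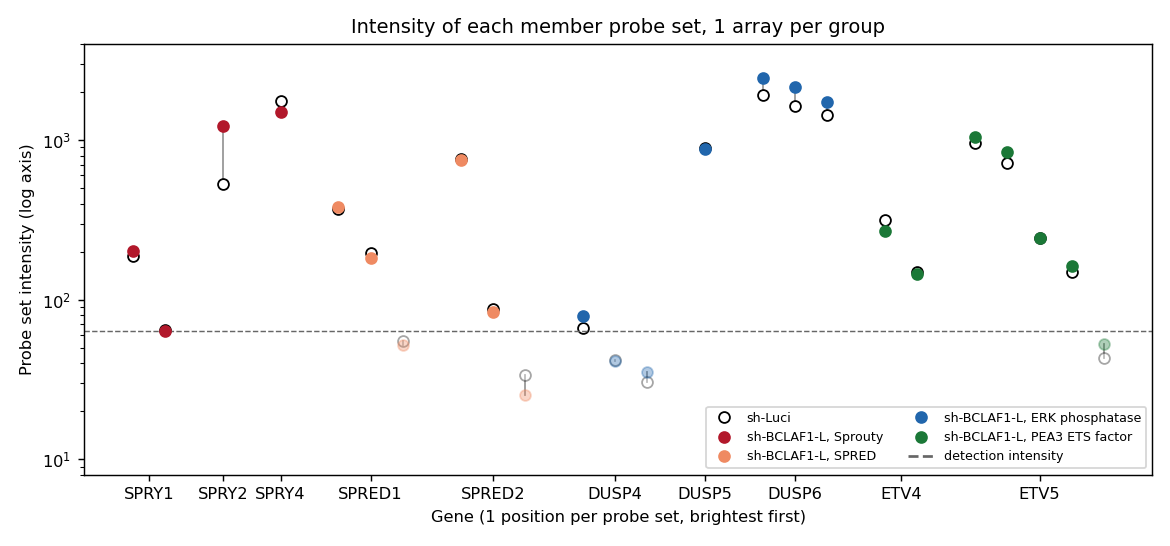
Intensity of all 24 member probe sets on a log axis, with the control array as open circles and the knockdown array as filled circles coloured by gene group. SPRY2 shows the widest gap (529 and 1233), the 3 DUSP6 probe sets are each higher in the knockdown, and faded points are the 5 probe sets below the detection intensity of 63.7 (dashed line).

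Sprouty proteins are inhibitors that become phosphorylated after receptor activation and interfere with the adaptor complex that loads RAS, and with RAF. SPRY2 had an intensity of 529 in the control cells and 1233 in the knockdown cells. This was 2.33-fold higher, a log2 difference of 1.22. SPRY2 is represented by 1 probe set, so no other probe set of the gene could be set beside this value. SPRY4 is also represented by 1 probe set. Its intensity was 1761 in the control and 1493 after knockdown, 1.18-fold lower, with a log2 difference of -0.24. SPRY1 read 187 and 203 on its brighter probe set, a log2 difference of 0.12, and 64.4 and 64.1 on its other one, close to the detection intensity. Of the 3 Sprouty genes, SPRY2 alone thus lay outside the central 95% of all detected genes. SPRY1, on its brighter probe set, and SPRY4 lay inside it, with opposite signs.

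SPRY2 had the 4th highest difference of the 14507 detected genes. Among the 725 detected genes of like brightness, 1 of 20 groups of equal size, its difference was the highest, and the central 95% of that group lay between -0.25 and 0.34. The genes closest to it in the order of differences were of other kinds, and this order rests on 1 pair of arrays. Above it stood PIWIL4 (control 42.5, knockdown 147), the interstitial collagenase MMP1 (145 and 440) and the secreted metalloproteinase ADAMTS6 (42.0 and 99.2). The genes directly under it were ITPRIPL1 (67.1 and 154), the non-coding MIR100HG (104 and 229) and the acylphosphatase ACYP1 (331 and 696). The control values of PIWIL4 and ADAMTS6 lay below the detection intensity, whereas SPRY2 was above it on both arrays. SPRY4-IT1, a non-coding transcript of the SPRY4 locus that was looked up after the SPRY4 value had been seen, read 331 and 279 on its detected probe set, a log2 difference of -0.25. Its other probe set read 59.2 and 66.5. A probe set that lists a SPRY4 transcript accession beside 2 other gene symbols is outside the rule for members. It read 41.6 and 32.5, below detection.

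SPRED proteins are Sprouty relatives that bind neurofibromin and bring it to RAS at the membrane. SPRED1 read 373 (control) and 381 (knockdown) on its brightest probe set, a log2 difference of 0.033, and 197 and 181 on the next, a log2 difference of -0.12. SPRED2 read 766 and 747 on its brightest probe set and 87.9 and 83.7 on the next, with log2 differences of -0.036 and -0.069. The detected SPRED probe sets thus lay between -0.12 and 0.033. The third SPRED1 probe set (54.9 and 52.1) and the third SPRED2 probe set (33.7 and 25.3) lay below detection. The last of these has a log2 difference of -0.40, and -0.20 with a pseudocount of 32 in place of 1.

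**Figure D2:**
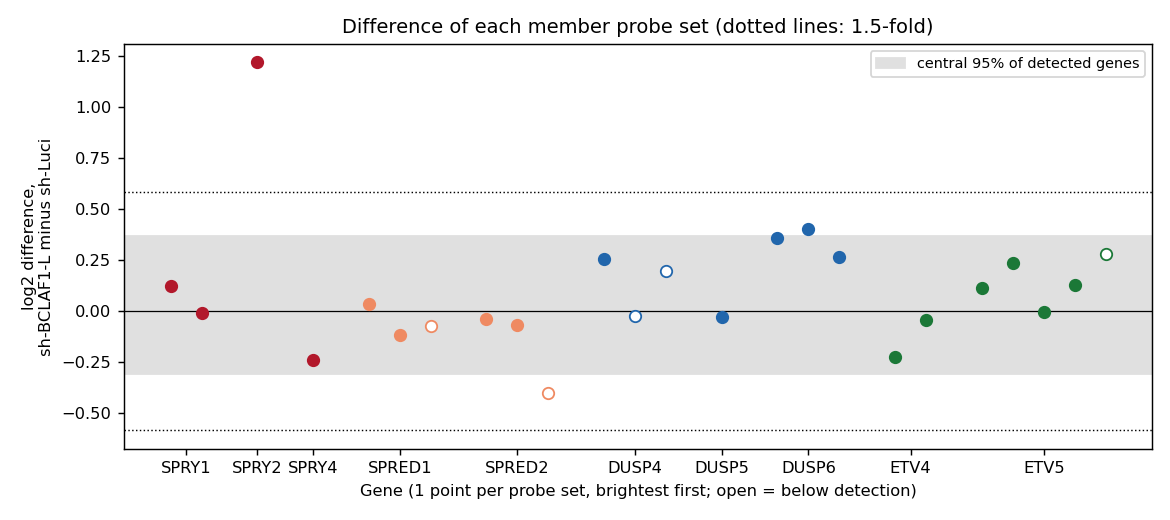
Log2 difference (knockdown minus control) of each member probe set, with open circles for probe sets below detection, dotted lines at 1.5-fold and a grey band for the central 95% of detected genes (-0.31 to 0.37). The SPRY2 point lies at 1.22, 1 DUSP6 probe set (0.40) lies just above the band, and the other detected points lie within it.

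DUSP6 is a cytoplasmic phosphatase selective for ERK, and DUSP4 and DUSP5 act on MAP kinases in the nucleus. All 3 DUSP6 probe sets were higher after knockdown. The brightest read 1923 in control cells and 2465 in knockdown cells, 1.28-fold higher. The other probe sets read 1629 and 2153, and 1444 and 1737. The log2 differences of the 3 ran from 0.27 to 0.40. All 3 read the same 2 arrays, so this range does not measure the spread between cultures. The brightest probe set's difference of 0.36 lay just inside the central 95% of all detected genes and above that of the 725 detected genes of like brightness, which ran from -0.25 to 0.32. DUSP5 read 896 and 879 on its single probe set, a log2 difference of -0.027. DUSP4 read 66.1 and 79.1 on its single detected probe set, barely above the detection intensity, a log2 difference of 0.26. Its other probe sets, which lay below detection, read 42.0 and 41.4, and 30.7 and 35.3. The nuclear phosphatases therefore gave no difference past 1.5-fold, and the DUSP4 values lay near or under the detection intensity.

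ETV4 and ETV5 are PEA3 group ETS factors that bind the promoters of ERK target genes and are themselves ERK-dependent transcripts. They differed in opposite directions by small amounts. ETV4 went from 314 in the control to 269 in the knockdown on its brighter probe set, 1.17-fold lower, and 150 and 145 on the other. ETV5 read 961 and 1040 on its brightest probe set, 1.08-fold higher. The next probe set of ETV5 read 718 and 846, and 2 further detected ones read 244.4 and 243.9, and 150 and 164. Of the 4 detected ETV5 probe sets 3 were higher, with log2 differences from -0.003 to 0.24. The fifth, below detection, read 43.0 and 52.4.

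Among the 6 members with several detected probe sets, those of DUSP6, ETV4 and SPRED2 each went one way, and those of SPRY1, SPRED1 and ETV5 did not. Probe sets of the same member differed from each other with a pooled SD of 0.092 on the log2 scale over 15 probe sets, against 0.16 over the 6752 detected genes with several. That SD covers disagreement between probe sets only. SPRY2, SPRY4, DUSP4 and DUSP5 each rest on 1 detected probe set, with no such comparison.

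**Figure D3:**
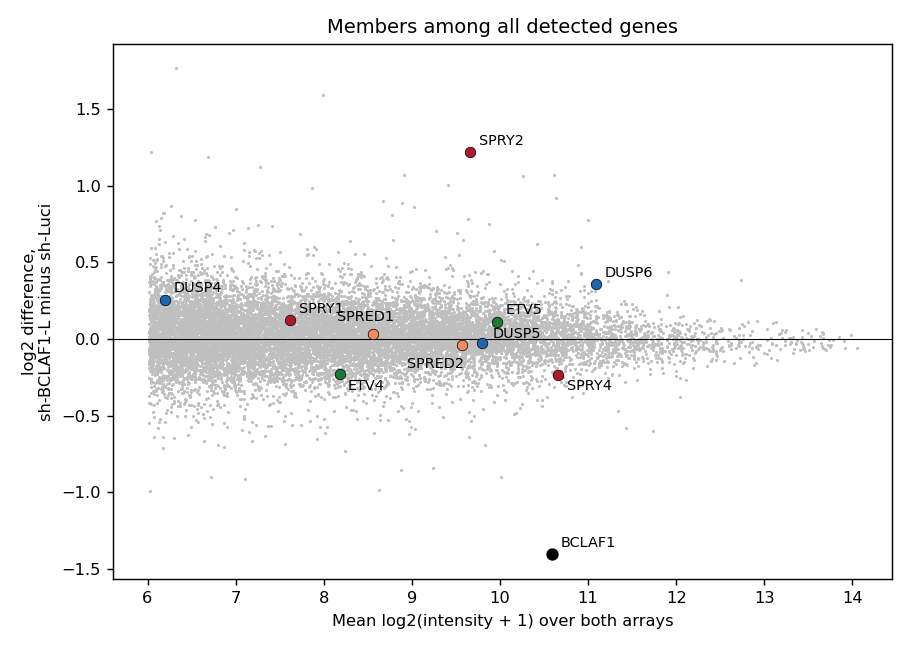
Log2 difference (knockdown minus control) against mean log2 intensity for the 14507 detected genes in grey, with the 10 members coloured by gene group and the targeted BCLAF1 in black. SPRY2 lies apart from genes of like brightness, DUSP6 at the upper edge of its surroundings, and the other 8 members within the grey cloud.

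The closest relatives of the members were also measured. SPRY3 read 98.0 (control) and 99.8 (knockdown), and SPRED3, which differs from the other SPRED proteins in its kinase-binding region, read 92.9 and 106. Of 7 further MAP kinase phosphatases 6 were detected, 0 of them outside the central 95% of all detected genes, with a median of -0.026. In that list DUSP8 differed by -0.21 and DUSP1, an immediate early phosphatase of the nucleus, by -0.13, whereas the highest values were 0.047 for DUSP10 and 0.010 for DUSP2. The probe sets were not uniform, since the dimmer detected ones differed by 0.20 and -0.31 for DUSP1, -0.021 for DUSP8 and -0.12 for DUSP10. All 17 further ETS factors were detected, with a median of -0.070 and 11 of them lower. ETV1, the third PEA3 group factor, read 158 and 211, 1.33-fold higher. On its dimmer detected probe sets the log2 differences were 0.31 and -0.021. ETS1 read 1546 and 1253 on its brightest probe set, a log2 difference of -0.30, with -0.12 and -0.023 on its other detected ones. ELF3, an epithelial ETS factor, differed by -0.30 as well on its single detected probe set (122 and 98.8). GABPA differed by 0.23. Together with ETV4 and ETV5, the 3 PEA3 group factors therefore read lower, slightly higher and higher in the knockdown.

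The lists of the cascade itself held no gene past 1.5-fold. In all, the 12 lists of relatives and pathway genes had 108 detected genes, of which 57 were higher and 51 lower, with a median of 0.0061. Above the central 95% of all detected genes lay 2 (1.85%) and below it 5 (4.63%), where each side holds 2.50% of all detected genes. Their range, from -0.53 to 0.45, did not include a value as far from 0 as that of SPRY2. Of the listed genes, 11 had no probe set with a single symbol and were not analysed here.

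Upstream of RAS, 12 adaptors and exchange factors had a median of 0.028. The adaptor FRS3 read 107 and 137 (log2 difference 0.35) and the exchange factor SOS1 632 and 746 (0.24). SHC2 differed by -0.21 and SHC1 by -0.16, the latter with -0.44 on its second probe set. Of 8 RAS GTPases and GTPase-activating proteins, NF1, which encodes the neurofibromin recruited by SPRED proteins, was highest at 0.25 (89.0 and 106), RRAS differed by 0.13, HRAS by -0.17 and RASA2 by -0.077. Of 9 detected RAF, MEK and ERK kinases and scaffolds, MAPK3 (ERK1) and MAP2K2 (MEK2) were highest at 0.13 each, although the 2 dimmer MAP2K2 probe sets differed by -0.17 and -0.24. The median of that list was 0.054, and -0.057 with the median over probe sets. MAP3K8 differed by -0.16 and PEBP1, which binds RAF, by -0.076. The 8 kinases activated by ERK had a median of -0.10, from RPS6KA1 at -0.26 and RPS6KA6 at -0.15 to RPS6KA2 at 0.039 and RPS6KA5 at 0.26. The second RPS6KA5 and RPS6KA2 probe sets differed by -0.34 and -0.17.

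FGF receptors, which signal through Sprouty-sensitive adaptors, had a median of 0.17 over 6 detected genes including IL17RD, a membrane inhibitor of FGF signalling. With the median over the probe sets of each gene it was 0.047. FGFR1 read 1205 and 1552 on its brightest probe set, a log2 difference of 0.37. Its 7 detected probe sets spread from -0.16 to 0.37. IL17RD read 272 and 320, a log2 difference of 0.23, with 0.083 on its second probe set. FGFR4 differed by -0.21 and FGFRL1 by -0.13. Of 9 FGF ligands 5 were detected, all dim, and FGF21 (73.5 and 57.4), FGF19 (63.8 and 65.3), FGF18 (90.5 and 100.0) and FGF1 (90.2 and 108) spanned log2 differences of -0.35 to 0.26. The knockdown value of FGF21 lay below the detection intensity.

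Transcripts read downstream of ERK did not move as SPRY2 did. Of 18 such genes 15 were detected, 6 of them higher and 9 lower, with a median of -0.061. FOSL1, an AP-1 subunit, went from 988 in the control to 699 in the knockdown on its single probe set, 1.41-fold lower. Cyclin D1 (CCND1), which drives entry into the cell cycle, read 738 and 543, 1.36-fold lower, and 280 and 263 on its other probe set. EPHA2, an ephrin receptor named here after its value had been seen, read 1635 and 1242 on its single probe set, 1.32-fold lower. These were 3 of the 5 listed genes below the central 95% of all detected genes. The highest values were those of KCNN4, a potassium channel (535 and 646, log2 difference 0.27), and PLAUR, the urokinase receptor (2275 and 2528, log2 difference 0.15). The dimmer PLAUR probe sets differed by -0.11 and 0.016. The immediate early gene EGR1, also named after its value had been seen, read 2414 and 2438 on its brightest probe set. Its 3 detected probe sets spread from -0.014 to 0.22. On the brightest probe sets EGR1 thus lay near its control value, while SPRY2 was above and FOSL1 below theirs. Whether these differences exceed the spread between cultures was not tested.

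**Figure D4:**
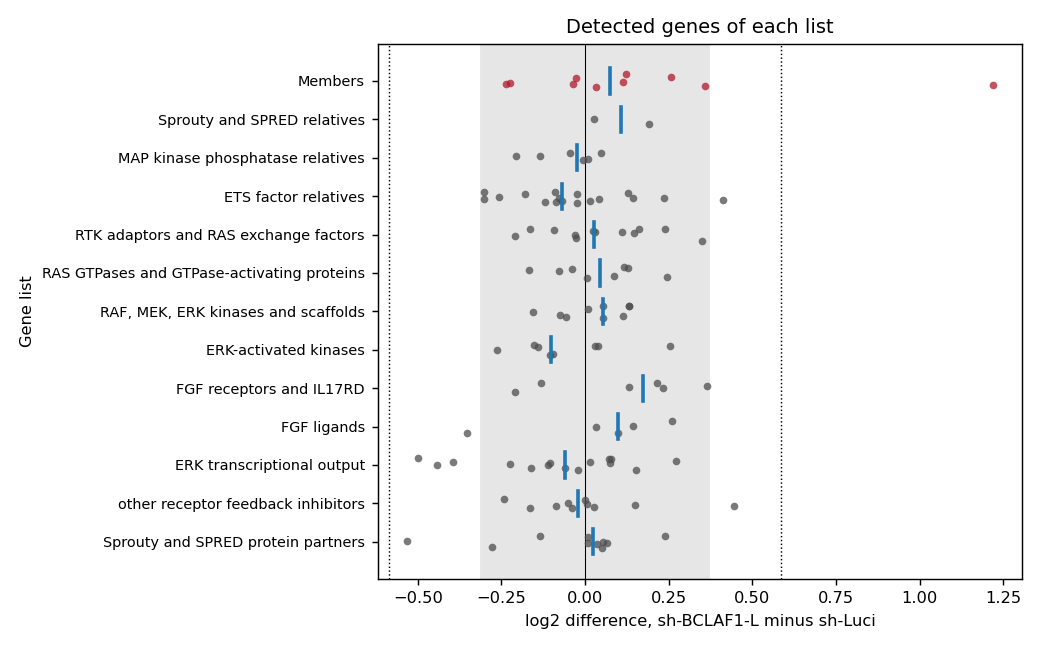
Log2 difference (knockdown minus control) of the detected genes of each list, 1 point per gene (brightest probe set), with blue bars for medians, dotted lines at 1.5-fold and a grey band for the central 95% of all detected genes (-0.31 to 0.37). SPRY2 at 1.22 is the single point past 1.5-fold, and 3 genes of the ERK output list (FOSL1, CCND1 and EPHA2) lie below the band.

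Other inhibitors that act on receptors had a median of -0.020 over 10 genes. CBLB, a ubiquitin ligase that downregulates receptors, read 769 and 1047, a log2 difference of 0.45, with 0.21 on its second detected probe set. SOCS5 differed by 0.15, but by -0.14 and -0.18 on its other probe sets. CBL, whose protein binds tyrosine-phosphorylated SPRY2, read 1331 and 1124, a log2 difference of -0.24, and its other detected probe sets spread from -0.20 to 0.11. PTPN1, a tyrosine phosphatase of receptors, differed by -0.16. ERRFI1, a feedback inhibitor of the EGF receptor named after its value had been seen, read 1004 and 1004. Among 10 genes for proteins that bind or modify Sprouty and SPRED proteins, the median was 0.022. PPP2R1A, the scaffold subunit of protein phosphatase 2A, read 602 and 416 on its single probe set, 1.45-fold lower. SIAH2, a ubiquitin ligase that targets SPRY2 for degradation, read 285 and 235, a log2 difference of -0.28. The catalytic phosphatase subunits PPP2CA and PPP2CB, looked up beside it, differed by 0.0081 and 0.0090. Caveolin-1 (CAV1), a membrane partner of Sprouty proteins, read 458 and 540, a log2 difference of 0.24, with 0.33 on its second probe set. DYRK1A, a kinase that phosphorylates Sprouty proteins, differed by 0.066, and by 0.34 and 0.26 on its dimmer detected probe sets. The array reads transcripts, so protein levels and ERK activity were not analysed here.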

How the data were processed

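Expression was measured on 2 arrays, 1 per group. The authors deposited 1 linear intensity per probe set and array. RMA (background correction, equalised distributions, probe set summary) is named per the submitters' processing notes. The program and version behind it, and the final scaling, were not given in the sources used here. The lowest value was exactly 1 on both arrays, and the highest was 17349 in the control and 16650 in the knockdown. The 2 deposited distributions were therefore not identical. Remaining background would make the folds of dim probe sets too small. Of 54675 probe sets 41097 had 1 gene symbol, and symbols were updated through Entrez identifiers in a RefSeq table of GRCh38.p14, which held 41043 of them. Differences are log2(value + 1), knockdown minus control. A gene took its brightest probe set, detected from the 40th percentile of mean log2 intensity. The design named this transformation for linear values. With 1 array per group no test was run, and counts past a fold are set beside the share of all detected genes. The precision is limited by the number of arrays. The members, gene lists and naming rule (all members, and per list genes past 1.5-fold, the 2 highest and the 2 lowest) were chosen with earlier results of these data known. The code for the fold calls was tested on simulated data with known changes, which says nothing of the spread between cultures. Python 3.11.15, pandas 2.3.3 and statsmodels 0.14.6 were used. Alternatives were the median over probe sets, leaving out _s_at, _x_at and _a_at probe sets, other filters, pseudocounts, fold thresholds and scalings.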

Additional observations from a re-analysis of the deposited data

How the results depend on the processing

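No paired analysis was possible because there was 1 array per group, which also leaves no replicate to omit. SPRY2 kept a log2 difference between 1.17 and 1.22 and DUSP6 one between 0.33 and 0.36 in the 8 alternatives to each. Only the pseudocounts and scalings moved these 2 values. The alternatives of filter and probe set choice left both unchanged, and for SPRY2, with 1 probe set well above detection, they could not do otherwise. The SPRED1 difference alone changed sign among the members, to -0.073 with the median over probe sets. That median is the value of the SPRED1 probe set below detection (54.9 and 52.1). Without _s_at, _x_at and _a_at probe sets 7 members remained, and SPRY4, DUSP4 and ETV4 could not be given a value from the probe sets detected there. At the lowest fold threshold tried, 2 members were higher, and of the 108 relatives and pathway genes 4 were higher and 5 lower, where 4.16% and 2.21% of all detected genes were. Without a filter 1 relative or pathway gene was at least 1.5-fold higher, the dim FGF7. The median of the members lay between 0.015 (median over probe sets) and 0.12. Of the 12 list medians 2 changed sign, that of the RAF, MEK and ERK list from 0.054 to -0.057 with the median over probe sets, and that of the Sprouty partners from 0.022 to -0.0036 after subtraction of the median difference. The FGF receptor median ran from 0.047 to 0.22 and the RAS list median from 0.0050 to 0.14. Probe set values near the detection intensity limit what can be said of DUSP4 and the FGF ligands.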
